A study of Rattus norvegicus with 4 samples.

Results

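Adhesion genes that join the myelinating Schwann cell (SC) to its axon were followed as a set of 10 in cultured rat SCs with and without ectopic expression of the Egr2-AS, the antisense RNA of the Egr2 promoter. The genes were Gldn, Nrcam, Nfasc, Cntn1, Cntn2, Cadm1, Cadm2, Cadm3, Cadm4 and Cldn19, chosen by name as node of Ranvier and axoglial adhesion genes. They were chosen with earlier results of these data known. All 10 had a row among the 17949 genes of the count table, and all 10 passed the low-count filter of at least 10 counts in at least 2 samples. Of these, 1 gene, Gldn, was lower in Lenti-AS, 0 were higher, and 9 did not pass the test.

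The SCs were primary cells from rat sciatic nerve, kept in serum medium with forskolin and heregulin-β1, and RNA was collected 48 h after infection in the presence of polybrene. The Lenti-GFP group (n = 2) received the control virus made from the pLVX-AcGFP1-N1 plasmid, and the Lenti-AS group (n = 2) received a virus with the Egr2-AS cloned into the pLVX-DsRed-Express2-N1 vector. The groups therefore differed in the reporter of the vector as well as in the Egr2-AS. No axons are described in the cultures, so SC transcripts of these genes were measured outside the contact in which their proteins work.

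At a node of Ranvier, SC microvilli face the bare axon, and gliomedin released by the SC gathers the axonal adhesion protein neurofascin and, with it, the voltage-gated sodium channels. Beside the node, the paranodal loops are held to the axon by glial neurofascin and the axonal pair of contactin-1 and Caspr, and contactin-2 acts in the juxtaparanode that follows. Along the internode, the SC protein Cadm4 binds Cadm proteins on the axon, and claudin-19 seals the noncompact layers of the same sheath with tight junctions.

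The promoters of Gldn and Cadm4 are shown because Gldn was the member that fell and Cadm4 was the member with the next smallest p. RefSeq windows of the GRCr8 build, from 250 bases before to 50 bases after the start site, matched 8 of the 10 genes in 9 windows, with Nrcam and Cadm1 unmatched. Both genes lie on the plus strand and only the 250 bases before the start are printed, Gldn at chr8:63575020-63575269 with 56.4% GC and Cadm4 at chr1:89202839-89203088 with 74.0% GC. Capitals mark the only match to a searched motif in either sequence.
Gldn: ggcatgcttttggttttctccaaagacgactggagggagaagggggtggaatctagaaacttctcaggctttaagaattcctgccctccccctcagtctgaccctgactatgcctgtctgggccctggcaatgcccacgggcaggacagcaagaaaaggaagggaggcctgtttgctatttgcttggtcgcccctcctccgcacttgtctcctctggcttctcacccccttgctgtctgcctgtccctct
Cadm4: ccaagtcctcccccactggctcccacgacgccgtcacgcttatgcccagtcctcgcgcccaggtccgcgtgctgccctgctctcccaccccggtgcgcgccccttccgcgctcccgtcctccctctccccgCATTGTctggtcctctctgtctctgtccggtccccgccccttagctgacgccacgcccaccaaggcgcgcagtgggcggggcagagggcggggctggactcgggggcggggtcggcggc

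Both strands of each window were searched for GCGNGGGCG (EGR family), ACAANG (SOX family) and TGACTCA (AP-1), and no match overlapped another. The Gldn window held none of them. The Cadm4 window held 1 SOX match on the minus strand, at -119 to -114 from the start. Among the other matched members, Cadm2 held 1 SOX match and Cadm3 held 1 AP-1 match, and none of the 8 held the EGR letters. Over all 33469 rat windows of this length, 4.98% held the EGR letters, 42.1% the SOX letters and 4.63% the AP-1 letters. These matches describe letters in the windows and not binding in SCs.

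Total counts were 94061942 and 96185890 in Lenti-GFP and 87084735 and 74024323 in Lenti-AS. The Egr2-AS has no row in the table, so its level was not used to check the labels. Egr2 itself, the gene at whose promoter the Egr2-AS arises, had 49.2 and 42.1 CPM in Lenti-GFP against 61.2 and 54.0 CPM in Lenti-AS, higher without overlap in the Lenti-AS samples. Its log2 fold change was 0.33, or 1.26-fold (adjusted p = 0.152 by edgeR and 0.0336 by DESeq2), which passed the cut-offs of neither. Reads from the opposite strand cannot be told apart. The study reports the other direction for EGR2 protein and for chromatin accessibility at the Egr2 locus, which are other measures than RNA. The SC markers had a row for 9 of 10 genes, all above 1 CPM, and their summed level was 6618 and 6568 CPM in Lenti-GFP and 8409 and 7157 CPM in Lenti-AS. Each Lenti-AS sample stood apart in some genes. Sox10 had 163 CPM in Lenti-AS 1 against 61.2 to 77.1 CPM in the other samples, and the 8 fibroblast markers summed to 2482 CPM there against 421 to 1006 CPM. That sum came from the collagen genes Col1a1 (2131 CPM) and Col1a2 (340 CPM), while Pdgfra, Pi16 and Twist2 were at 4.06, 5.24 and 2.15 CPM, close to the other samples, and Dcn, Lum and Dpt had 0 to 3 counts in every sample. The red blood cell markers summed to 2483 CPM in Lenti-AS 2 against 8.08 to 10.2 CPM, through the globin genes Hbb, Hba-a1, Hbz and Hbe1, while Alas2 was at 0.851 CPM there against 0.461 to 0.812 CPM, Slc4a1 at 0.133 CPM against 0.103 to 0.222 CPM, and Epb42 was lowest there at 2.57 CPM. Results are therefore also given with each sample left out. CPM here is a gene's count scaled to the TMM-adjusted size of its library, without correction for gene length, so levels are compared between samples and not between genes.

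Gliomedin transcripts fell in Lenti-AS, to 51.4% of the control level. Gldn had 174 and 168 CPM in Lenti-GFP 1 and 2, and 86.8 and 89.2 CPM in Lenti-AS 1 and 2. The groups did not overlap, and the gap of 78.8 CPM between the nearest samples was much wider than the range within either group, 6.14 CPM among controls and 2.43 CPM in Lenti-AS. The means were 171 ± 4.34 CPM and 88.0 ± 1.72 CPM (SD, n = 2 each). In the edgeR quasi-likelihood fit, the log2 fold change of Lenti-AS against Lenti-GFP was -0.96 (SE 0.0553, 95% interval -1.09 to -0.82), with an adjusted p of 0.00795. That interval corresponds to 46.8% to 56.5% of the control level. In these bulk samples, fewer cells that transcribe Gldn and less Gldn RNA per cell cannot be told apart.

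Across all 12446 genes tested, 0.667% were called lower in Lenti-AS and 1.31% higher, at an adjusted p under 0.05 and a fold change of at least 1.3. With 1 of 10 members called lower, the share of the members was 10.0% against that background, but it rests on a single gene. The members were also chosen with earlier results of these data known, so the share is not an independent test. Among the 83 genes called lower, Gldn stood at place 15 by the size of its fall and at place 4 by its p. DESeq2 gave Gldn the same log2 fold change of -0.96, with an adjusted p of 4.49e-41.

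**Figure D1:**
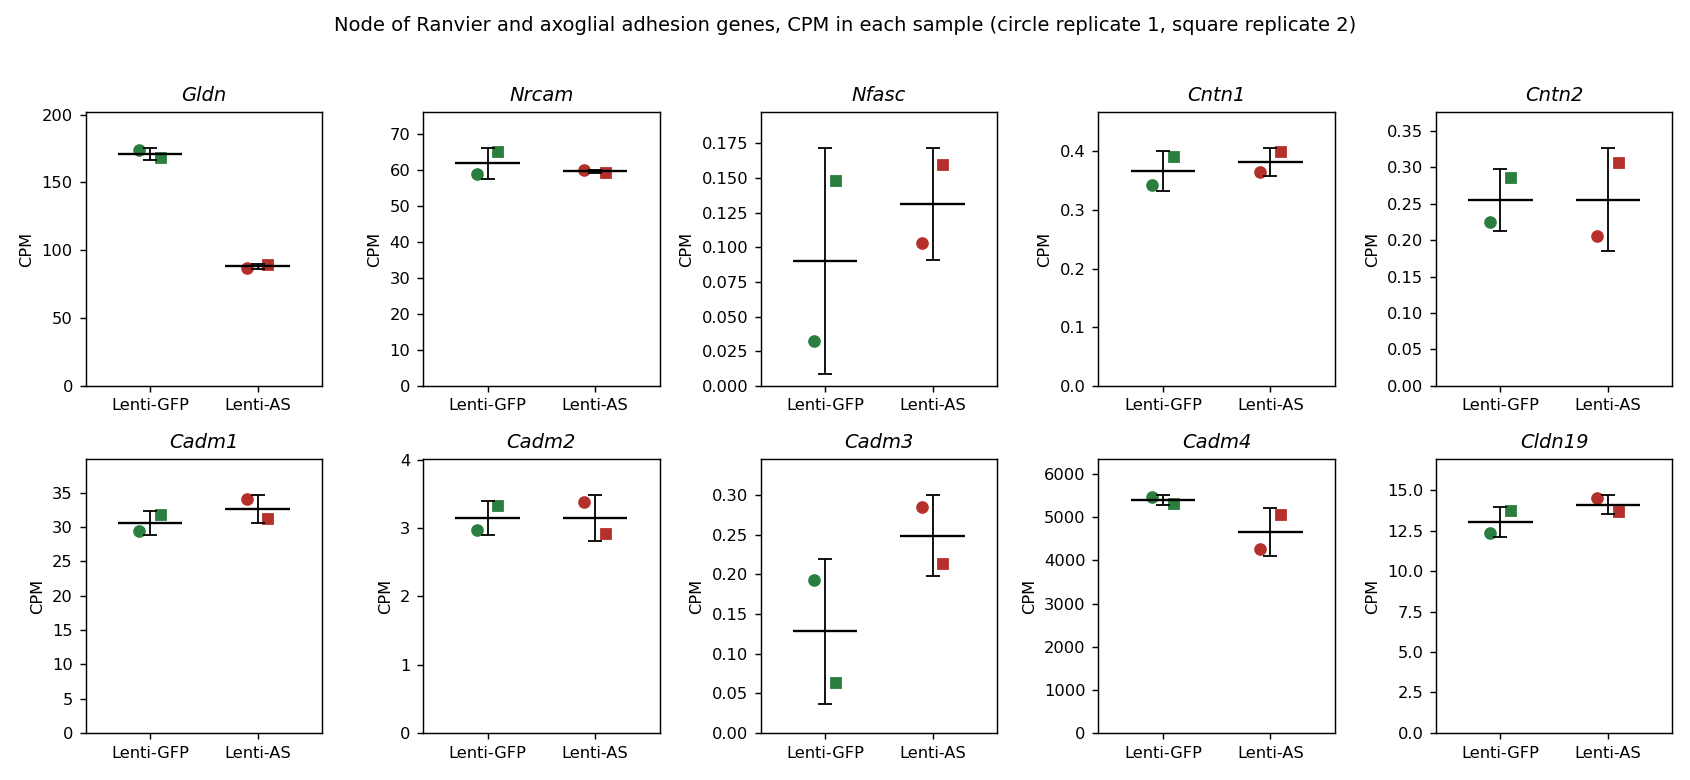
CPM of the 10 adhesion genes in each sample, 1 panel per gene with its own axis from 0, with Lenti-GFP in green and Lenti-AS in red (circle, replicate 1, and square, replicate 2). Bars are group means with SD (n = 2). Gldn drops from 171 to 88.0 CPM with no overlap. Cadm4 does not overlap either, but its gap is smaller than its range within Lenti-AS. Nfasc, Cntn2 and Cadm3, all under 1 CPM, scatter widely within a group, and of these Cadm3 does not overlap between the groups.

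Of the neurofascin and NrCAM receptors that gliomedin binds, neither passed the test. Nrcam, an adhesion protein of the L1 family found on SC microvilli and on nodal axons, had 58.8 and 64.9 CPM in Lenti-GFP and 60.0 and 59.3 CPM in Lenti-AS. Its Lenti-AS values both lay between the controls. The fitted log2 fold change was -0.0533 (SE 0.0772, adjusted p = 0.722), and its 95% interval of -0.24 to 0.14 leaves room for 84.5% to 110% of the control level, which does not reach down to the fall of Gldn.

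Nfasc, which encodes the glial neurofascin of the paranode and the axonal neurofascin of the node, was at the edge of detection. It had 3 and 14 counts in Lenti-GFP and 9 and 12 counts in Lenti-AS, or 0.0321 and 0.148 CPM against 0.103 and 0.160 CPM. The groups overlapped, and the exact Poisson 95% intervals of the control counts alone, 0.619 to 8.77 and 7.65 to 23.5, overlapped little. Such intervals hold counting error only. The log2 fold change was 0.52 with an interval of -1.34 to 2.38 (adjusted p = 0.724), so a change of Nfasc as large as that of Gldn was not detectable at this depth.

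The contactins of the paranode and juxtaparanode were also low. Cntn1, the paranodal contactin, had 0.343 and 0.390 CPM in Lenti-GFP and 0.365 and 0.399 CPM in Lenti-AS, from 30 to 37 counts a sample. Cntn2, the juxtaparanodal contactin also called TAG-1, had 0.225 and 0.285 CPM in Lenti-GFP and 0.205 and 0.306 CPM in Lenti-AS, from 18 to 27 counts. Both genes overlapped between the groups. The log2 fold change was 0.0576 for Cntn1 (95% interval -0.75 to 0.87, adjusted p = 0.939). For Cntn2 it was -0.00617 (-1.01 to 1.00, adjusted p = 0.994), and an interval this wide does not show that either level was the same.

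Cadm4, the SC receptor of the internode, was the most heavily counted member. It took 0.544% and 0.524% of all counts in Lenti-GFP and 0.429% and 0.512% in Lenti-AS. After scaling these were 5483 and 5314 CPM against 4265 and 5047 CPM, with means of 5398 ± 120 and 4656 ± 553 CPM (SD, n = 2 each). The groups did not overlap, but the gap of 267 CPM was smaller than the range of 782 CPM within Lenti-AS. Cadm4 had a log2 fold change of -0.21 (SE 0.089, 95% interval -0.43 to 0.0047, adjusted p = 0.236), which did not pass the test and corresponds to 86.2% of the control level (74.1% to 100.3%). Lenti-AS 1, the sample with the high Sox10 and collagen counts, was the lower of the pair, and the part of those genes in the Cadm4 value was not tested.

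The other Cadm genes, whose proteins pair with Cadm4 or with each other across the axon and SC membranes, did not pass the test. Cadm1 had 29.4 and 31.8 CPM in Lenti-GFP and 34.1 and 31.2 CPM in Lenti-AS, with a log2 fold change of 0.0922 (95% interval -0.10 to 0.29, adjusted p = 0.532). Cadm2 had 2.98 and 3.32 CPM in Lenti-GFP and 3.39 and 2.91 CPM in Lenti-AS, with a log2 fold change of 0.0011 (-0.42 to 0.43, adjusted p = 0.997). The groups overlapped for both genes. Their intervals bound a change at 93.2% to 122% of the control level for Cadm1 and 74.5% to 134% for Cadm2.

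Cadm3, the axonal partner of Cadm4, was barely counted in these cultures. It had 18 and 6 counts in Lenti-GFP and 25 and 16 counts in Lenti-AS, or 0.193 and 0.0633 CPM against 0.285 and 0.213 CPM. Once scaled, the groups did not overlap, by a gap of only 0.020 CPM. Its log2 fold change of 0.96 was as large as that of Gldn in the other direction, but its interval ran from -0.49 to 2.41 (SE 0.59, adjusted p = 0.387). Without Lenti-GFP 1 it was 1.96 and without Lenti-GFP 2 it was 0.37, so its size rests on which control sample is kept.

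Within the Cadm family, Cadm4 held 99.41% and 99.34% of the family's counts in Lenti-GFP and 99.12% and 99.33% in Lenti-AS, a share that also reflects gene length. Cadm1 held 0.532% and 0.595% against 0.792% and 0.613%. The log2 ratio of Cadm1 to Cadm4 counts, which does not depend on library scaling, was -7.54 and -7.38 in Lenti-GFP and -6.97 and -7.34 in Lenti-AS. The Lenti-AS ratios were both higher, by 0.31 on average, with p = 0.333 in a two-sided exact permutation test, the smallest value that 2 against 2 samples can give. The log2 ratio of Cntn1 to Cntn2 differed by 0.0756 (p = 1.0) and that of Nrcam to Nfasc by -0.95 (p = 0.667) in the same exact test, and the groups overlapped in both.

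Cldn19, the tight junction claudin of noncompact myelin, had 12.4 and 13.7 CPM in Lenti-GFP and 14.5 and 13.7 CPM in Lenti-AS. Control sample 2 and Lenti-AS 2 were nearly equal, so the groups overlapped. Cldn19 had a log2 fold change of 0.11 (SE 0.0956, 95% interval -0.12 to 0.35, adjusted p = 0.519), or 92.0% to 127% of the control level.

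**Figure D2:**
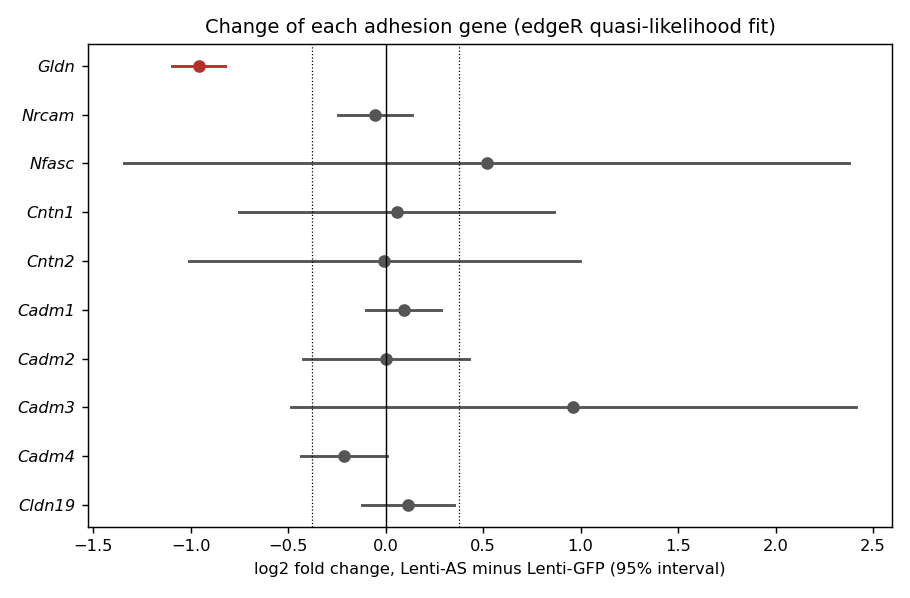
Log2 fold change of Lenti-AS against Lenti-GFP for the 10 adhesion genes, with 95% intervals from the edgeR fit. Dotted lines mark a fold change of 1.3 in each direction and red marks the called gene. The Gldn interval, -1.09 to -0.82, lies wholly beyond the lower line, while the intervals of the other 9 genes reach 0 and those of Nfasc, Cntn1, Cntn2 and Cadm3 are the widest.

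Among the members as a set, 6 had a fitted value above 0 and 4 below, with a median log2 fold change of 0.0293 beside 0.0071 over all genes tested. Gldn and Cadm4 were lower without overlap and Cadm3 was higher without overlap, 3 of 10 or 30.0%, while 54.9% of all genes tested did not overlap (27.7% higher and 27.2% lower). Of the members, 1 had an unadjusted p under 0.05, while 21.8% of all genes did. With the same thresholds, DESeq2 called 1 member lower and 0 higher, beside 1.12% and 3.92% of all genes.

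The fall of Gldn kept its size whichever sample was left out, although its call did not. Without Lenti-AS 1 the log2 fold change was -0.94 (adjusted p = 1.69e-12), and without Lenti-AS 2 it was -0.98 (adjusted p = 2.04e-13). Without Lenti-GFP 1 it was -0.93 (adjusted p = 0.144), and without Lenti-GFP 2 it was -0.98 (adjusted p = 0.132), neither of which passed. In these fits a lone sample is assumed to vary like the other group. The number of genes called over the whole table was 1 without either Lenti-GFP sample, 841 without Lenti-AS 1 and 1519 without Lenti-AS 2.

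The value of Cadm4 moved most when a Lenti-AS sample was left out. Without Lenti-AS 1 its log2 fold change was -0.0972 (adjusted p = 0.411), and without Lenti-AS 2 it was -0.34 (adjusted p = 0.00161). The latter passed the p threshold but, at 1.27-fold, not the fold threshold. Without Lenti-GFP 1 or 2 it was -0.19 (adjusted p = 0.590) or -0.23 (adjusted p = 0.685).

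**Figure D3:**
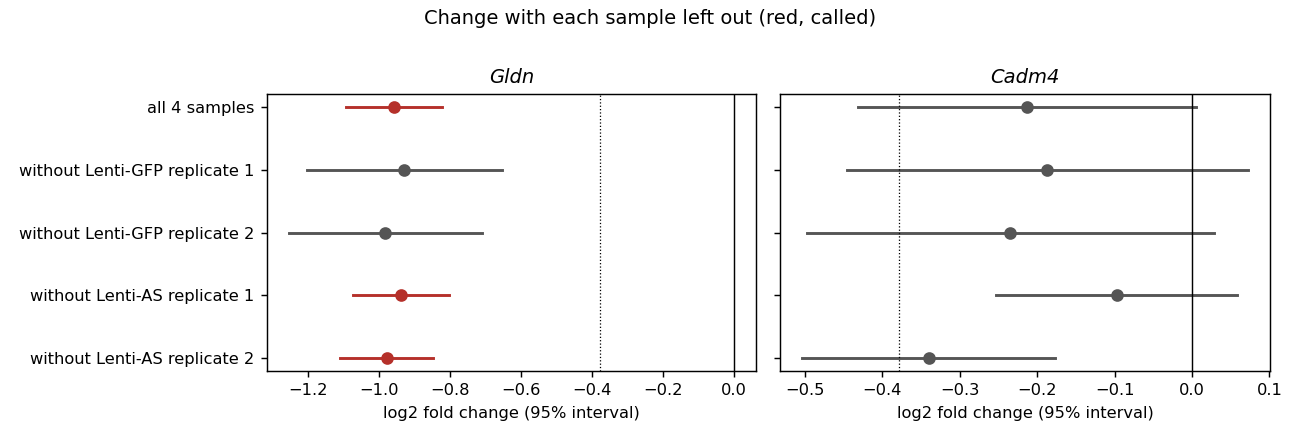
Log2 fold change of Gldn and Cadm4 with all 4 samples and with each sample left out, with 95% intervals. Red marks fits in which the gene was called, and the dotted line marks a fall of 1.3-fold. Gldn stays between -0.98 and -0.93, and Cadm4 moves between -0.34 and -0.0972.

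The members were then set beside 100 genes that work with them, listed by place in 5 groups. Of these, 93 had a row and 79 passed the count filter, and 14 did not. The fit called 2 higher (Gjb1 and Cdh1) and 3 lower (Tnc, Mpp6 and Ncam2), together 6.33% of those tested, where 1.98% of all genes were called. The groups did not overlap for 36 partner genes that were higher and 19 that were lower, together 69.6% against 54.9% of all genes. The lists were chosen with earlier results of these data known, so neither share is an independent test of the lists. All 5 calls were lost without Lenti-GFP 1 and without Lenti-GFP 2, where 0 partners were called in either direction (Tnc adjusted p = 0.125 and 0.132, Gjb1 0.196 and 0.268). Without Lenti-AS 1 the fit called 5 higher and 5 lower, and without Lenti-AS 2 it called 8 higher and 4 lower. The median log2 fold change of the 79 genes was 0.12. Members and partners come from the same 4 samples, so their values are not independent of one another.

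Among the nodal and axonal partners of Nrcam, Nfasc and the contactins (ankyrins, spectrins, Caspr proteins and ion channels), 18 genes were tested, with a median log2 fold change of 0.16. edgeR and DESeq2 called 0 of them, and 5 had an unadjusted p under 0.05, where 21.8% of all genes tested did. Ank3, encoding the ankyrin that anchors nodal neurofascin and sodium channels, had 516 and 533 CPM in Lenti-GFP and 571 and 633 CPM in Lenti-AS (log2 fold change 0.20, adjusted p = 0.169). Epb41l3, encoding the 4.1 protein that anchors the paranodal complex, had 215 and 228 CPM in Lenti-GFP and 247 and 258 CPM in Lenti-AS (0.19, adjusted p = 0.150). Neither pair of groups overlapped, but neither gene passed the test.

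As several of these genes and members are also neuronal, neuron markers were read beside them. Their summed level was 249 and 266 CPM in Lenti-GFP and 193 and 197 CPM in Lenti-AS, and 8 of the 10 markers were under 1 CPM in every sample. Rbfox3 was at 0 counts in both Lenti-GFP samples, and Snap25 and Isl1 were each at 0 in 1 sample of each group. The sum came mostly from Nefl, the light neurofilament, which was called lower (142 and 152 CPM against 106 and 108 CPM, adjusted p = 0.0303), and from Nefm. The part of these transcripts in the member values was not tested.

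In the list of SC microvilli and nodal matrix, where gliomedin is placed, 21 genes were tested and edgeR called Tnc alone. DESeq2 called 1 lower and 1 higher, the latter Gpc1, which encodes the proteoglycan glypican-1 and is named here after its values were seen (154 and 143 CPM in Lenti-GFP against 224 and 167 CPM in Lenti-AS, log2 fold change 0.40, adjusted p = 0.0303 by DESeq2 and 0.178 by edgeR). Tnc encodes tenascin-C, a matrix glycoprotein that SCs secrete. It had 1242 and 1214 CPM in Lenti-GFP and 482 and 589 CPM in Lenti-AS, and the groups stood far apart. Tnc fell by 1.20 on the log2 scale (SE 0.0987, adjusted p = 0.0144, 2.29-fold), at place 10 by size among the genes called lower. The median of the list was 0.14. Over all genes tested, edgeR called 0.667% lower and 1.31% higher, and DESeq2 1.12% and 3.92%. Of this list, 8 genes had an unadjusted p under 0.05 by edgeR, where 21.8% of all genes tested did. Sdc4, the proteoglycan syndecan-4, had 558 and 588 CPM in Lenti-GFP and 461 and 464 CPM in Lenti-AS. Its log2 fold change was -0.31 (adjusted p = 0.0520 by edgeR and 5.2e-05 by DESeq2). At 1.24-fold, Sdc4 was also under the fold cut-off, and DESeq2 did not call it. Prx, the SC scaffold periaxin, had 471 and 490 CPM in Lenti-GFP and 570 and 547 CPM in Lenti-AS (0.22, adjusted p = 0.106).

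Among the genes of noncompact myelin junctions, the setting of Cldn19, 22 were tested, 2 were called higher and 0 lower, with a median of 0.0806. Over all genes tested, edgeR called 1.31% higher and 0.667% lower. Of this list, 10 genes had an unadjusted p under 0.05, where 21.8% of all genes tested did. DESeq2 also called 2 higher and 0 lower, where it called 3.92% and 1.12% of all genes. Gjb1, the connexin that forms gap junctions between myelin layers, rose from 20.4 and 19.1 CPM to 32.4 and 31.1 CPM (log2 fold change 0.68, SE 0.070, adjusted p = 0.0218). Cdh1, the E-cadherin of the adherens junctions that SCs form with themselves, rose from 19.1 and 19.0 CPM to 26.5 and 29.9 CPM (0.57, SE 0.0815, adjusted p = 0.0389). Both Lenti-AS samples were above both controls for each gene. Mag, the myelin-associated glycoprotein of the membrane facing the axon, had 52.2 and 51.8 CPM in Lenti-GFP and 41.4 and 40.0 CPM in Lenti-AS (-0.35, adjusted p = 0.0594). Ctnnb1, the β-catenin that binds E-cadherin, had 1567 and 1594 CPM in Lenti-GFP and 1295 and 1329 CPM in Lenti-AS (-0.27, adjusted p = 0.0642). Mag, at 1.28-fold, and Ctnnb1, at 1.20-fold, were also under the fold cut-off. DESeq2 gave them adjusted p of 0.00038 and 0.00013 and called neither.

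Cadm proteins are tied to the cytoskeleton by scaffold proteins, and 10 genes of this list were tested, with a median of 0.14. Both edgeR and DESeq2 called 1 of them lower and 0 higher. Over all genes tested, edgeR called 0.667% lower and 1.31% higher, and DESeq2 1.12% and 3.92%. The call in this list is a single gene. Of the 10 genes, 2 had an unadjusted p under 0.05 by edgeR, where 21.8% of all genes tested did. Mpp6, a membrane-associated guanylate kinase scaffold, fell from 70.5 and 69.7 CPM to 49.6 and 53.9 CPM (log2 fold change -0.44, SE 0.0741, adjusted p = 0.0499). That value lay just inside the threshold. The other scaffolds named here did not pass. Mpp1 had 16.5 and 14.8 CPM in Lenti-GFP and 24.3 and 18.1 CPM in Lenti-AS (0.44, adjusted p = 0.174). Cask had 26.7 and 27.8 CPM in Lenti-GFP and 31.6 and 29.6 CPM in Lenti-AS (0.17, adjusted p = 0.233).

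In the last list, other members of the L1, contactin and nectin families and their kin, 8 genes were tested with a median of -0.0634. Of these, edgeR called 1 lower and 0 higher, where it called 0.667% and 1.31% of all genes. DESeq2 called 2 lower and 1 higher, where it called 1.12% and 3.92% of all genes. By edgeR, 5 of the 8 had an unadjusted p under 0.05, where 21.8% of all genes tested did. Ncam2, a neural cell adhesion molecule, fell from 10.6 and 10.2 CPM to 6.57 and 6.33 CPM (log2 fold change -0.68, SE 0.11, adjusted p = 0.0450). Nectin1, an adhesion receptor related to the Cadm proteins, had 7.10 and 6.76 CPM in Lenti-GFP and 19.7 and 11.5 CPM in Lenti-AS (1.17, adjusted p = 0.0788). Cntn6, a contactin of the same family as Cntn1, had 2.01 and 2.79 CPM in Lenti-GFP and 1.16 and 0.878 CPM in Lenti-AS (-1.23, adjusted p = 0.0813). The samples of Nectin1 and Cntn6 did not overlap between groups but differed widely within a group, and DESeq2 called both.

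**Figure D4:**
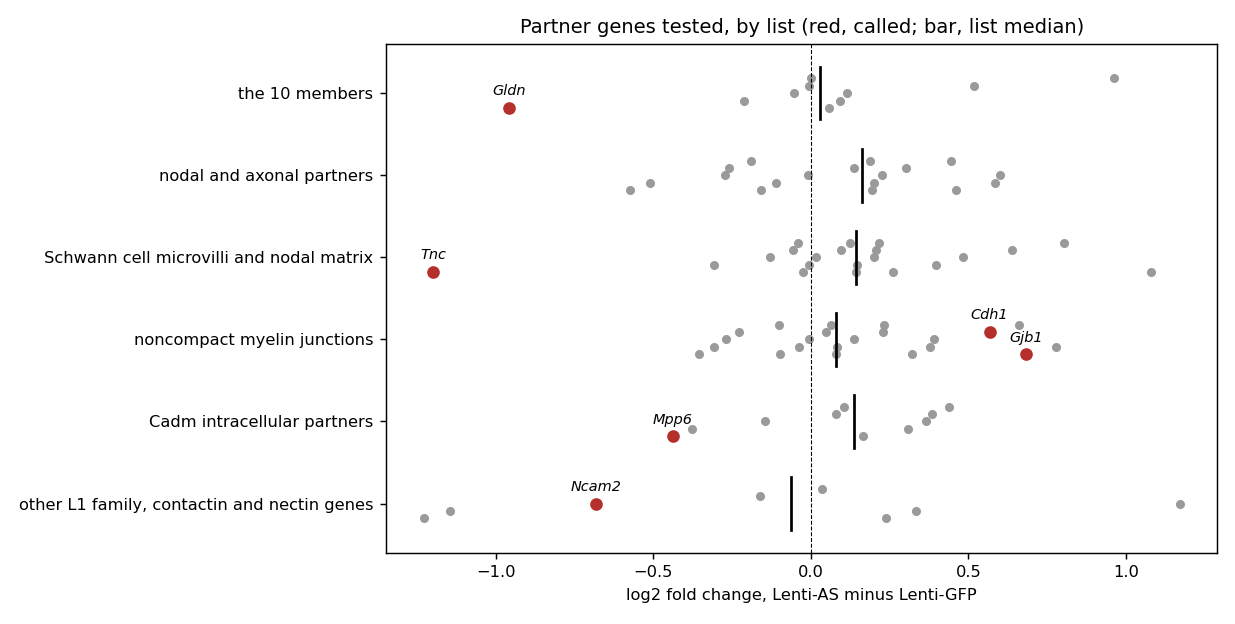
Log2 fold change of Lenti-AS against Lenti-GFP for the 10 adhesion genes and for the tested genes of the 5 partner lists. Each point is a gene, red points are called and named, and bars are list medians. Gldn and Tnc are the called genes farthest to the left, Gjb1 and Cdh1 the 2 called to the right, and every list has genes on both sides of 0.

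**Figure D5:**
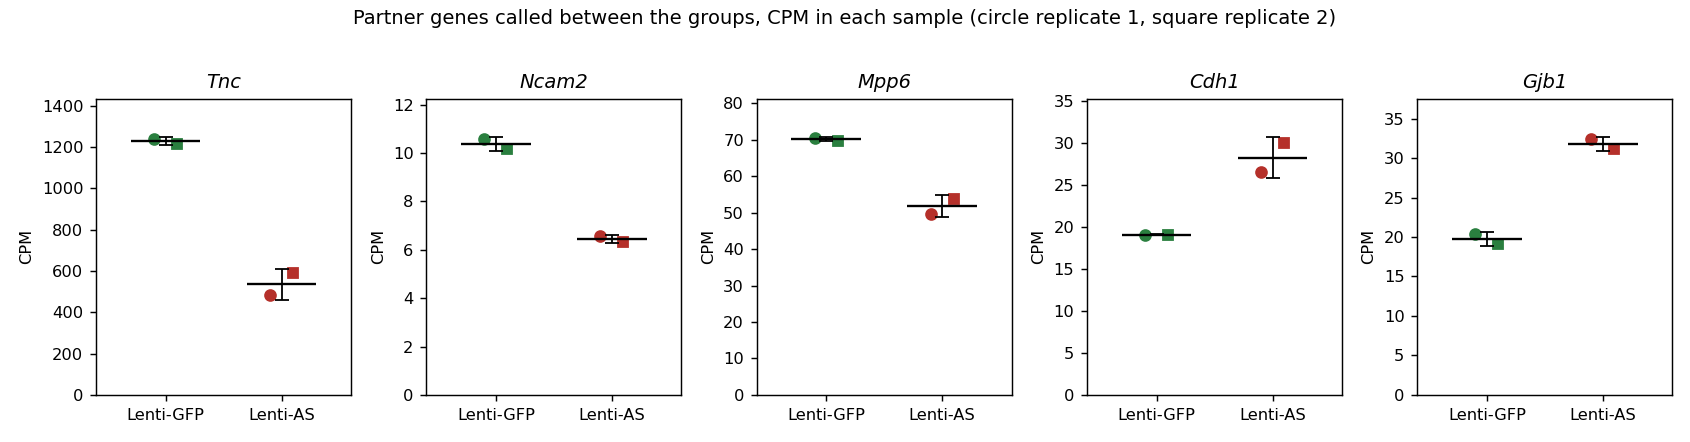
CPM of the 5 called partner genes in each sample, with group means and SD (n = 2 each) and axes from 0, Lenti-GFP in green and Lenti-AS in red. Tnc, Ncam2 and Mpp6 are lower and Cdh1 and Gjb1 higher in both Lenti-AS samples than in both Lenti-GFP samples.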

How the data were processed

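RNA-seq (50 bp paired-end) counts of 4 samples of rat SCs were used, mapped to groups by their labels. The authors deposited whole-number counts per gene, not normalized. Their methods name hisat2 and featureCounts on RefSeq exons of rn6, while the submitters' processing notes name GSNAP in place of hisat2. Settings for strand and multiply matched reads are not given in the sources used here, so reads from overlapping antisense transcripts may be included. A repeated header line was dropped (1). Of 17949 genes, 1623 had 0 counts in all samples, and the 12446 that reached 10 counts in 2 samples or more entered the test of edgeR 4.0.16 (R 4.3.3, TMM, glmQLFit, glmQLFTest, group term only). P-values were adjusted over all genes tested (Benjamini-Hochberg), and calls needed an adjusted p under 0.05 and a fold of at least 1.3, the cut-offs of the study, which ran DESeq2. Standard errors came from the F statistic. The labels call the samples biological replicates, with no word on separate cultures. The p-values set the group difference against a variation estimated from these 4 samples with information from all genes tested. A spread between separate cultures may not be part of it. Replicates differed beyond sampling noise (chi-square per gene 32.4 in Lenti-GFP and 103 in Lenti-AS). The biological coefficient of variation was 12.1%.

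The members and lists were chosen with earlier results of these data known. All 10 members are named, with every partner called and the 2 partners of each list with the smallest unadjusted p among those not called. Of 100 partner genes, 7 are not analysed here. Alternatives were DESeq2 1.42.0, limma 3.58.1 (voom), other scalings, filters and tests, a replicate block and each sample left out. Scripts were tested on simulated data. Promoters are from RefSeq (GRCr8), and no coordinates of rn6 were used. Endothelial markers summed to 20.9 and 20.7 CPM in Lenti-GFP and 15.9 and 15.4 CPM in Lenti-AS. That sum was almost all Tek (19.8, 20.2, 15.3 and 14.7 CPM in the same order). The other 5 endothelial markers were under 1 CPM in every sample. Macrophage markers summed to 3.30, 3.21, 3.85 and 4.22 CPM, mostly from Cd68 and Csf1r. Perineurial markers summed to 281, 276, 320 and 337 CPM. Itgb4, Ptch1 and Slc2a1 made up that sum, and Cldn1 was under 1 CPM in every sample.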

Additional observations from a re-analysis of the deposited data

How the results depend on the processing

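Members called higher numbered 0 in all 15 alternatives, and Gldn was called lower in 13 of them, the exceptions being the fits without either Lenti-GFP sample (0 to 1 members called lower over the 4 fits that leave out a sample). Outside those fits, Gldn was between -0.96 and -0.93 on the log2 scale with adjusted p from 4.49e-41 to 0.0196. Over all genes, 246 were called, against 627 by DESeq2, 521 by the likelihood ratio test and 1 to 1519 with a sample left out. Of the calls 66.3% were higher by TMM, 77.8% by DESeq2 and 73.4% with library totals, which moved the median of all genes to 0.039. Partner genes called higher were 4 by DESeq2, 4 by the likelihood ratio test and 0 to 8 with a sample left out, and those called lower 0 to 5 with a sample left out. Library totals lost Mpp6 (adjusted p = 0.0617). DESeq2 and the likelihood ratio test added Nectin1 and Cntn6. DESeq2 also added Gpc1, and the remaining gene that the likelihood ratio test called higher is not identified here. The cause of these changes was not tested.

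Same-numbered samples share no stated culture or day and did not deviate together (r = -0.0176 across 12446 genes). With the replicate block, 17 genes were called, 17.6% of them higher, with partners 0 higher and 1 lower, and Gldn kept its call (-0.96, adjusted p = 0.0196). The block lost the calls of Gjb1, Cdh1, Mpp6 and Ncam2 (adjusted p = 0.0680, 0.0915, 0.109 and 0.104) with log2 fold changes of 0.68, 0.56, -0.44 and -0.68, beside 0.68, 0.57, -0.44 and -0.68 without it.

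Members near 0 changed sign without passing the test. Cadm2 was -0.000289 by DESeq2, -0.000396 with RLE factors, -0.00145 without a filter, -0.000516 with the block and -0.11 to 0.10 with a sample left out. Cntn2 was 0.00438 with upper-quartile factors, 0.0263 with library totals and -0.31 to 0.26 with a sample left out. With a sample left out, Nrcam ranged from -0.12 to 0.0207, Nfasc from -0.18 to 1.97, Cadm3, which kept its sign, from 0.37 to 1.96 and Cntn1 from -0.0289 to 0.16, and the log2 ratio difference of Cadm1 to Cadm4 from 0.12 to 0.50, of Cntn1 to Cntn2 from -0.15 to 0.30 and of Nrcam to Nfasc from -1.97 to 0.0837. A filter of 1 CPM in 2 samples left 6 members to test, and DESeq2 gave no adjusted p for Nfasc, Cntn1, Cntn2 and Cadm3, the 4 members under 1 CPM, whose depth limits what their values can show.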
